A study of Mus musculus with 9 samples.

Results

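The transcripts described here are 10 mouse genes of protein turnover in muscle, taken from a table of 38293 genes by their symbols: the forkhead transcription factors Foxo1, Foxo3 and Foxo4, and the ubiquitin ligase genes Fbxo32, Trim63, Trim55, Trim54, Trim72, Asb2 and Asb15. They were measured by poly(A)-selected RNA sequencing of heart ventricles at postnatal day 7. The 5 control libraries came from Arid1a f/f littermates, which carry both floxed alleles and no Cre. The 4 cKO libraries came from αMHC-Cre;Arid1a f/f animals, in which the αMHC promoter drives Cre recombinase in cardiomyocytes, so that other cells of the ventricle keep the gene. All animals were on a C57B/6J background and pups of both sexes were included. The comparison asked how these genes differ when cardiomyocytes lack Arid1a, which encodes a subunit of the chromatin remodeller SWI/SNF.

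A ubiquitin ligase attaches ubiquitin to chosen proteins and thereby marks many of them for the proteasome. In muscle, the F-box protein atrogin-1 (Fbxo32) and the RING protein MuRF1 (Trim63) are the ligases classically linked to atrophy, and FoxO factors activate both genes when signalling from insulin and growth factors through Akt is low. MuRF2 (Trim55) and MuRF3 (Trim54) are close relatives of MuRF1 at the sarcomere and microtubules, while the ASB proteins recruit substrates to ligases built on cullin 5. RNA levels report neither the amount nor the activity of these proteins.

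All 10 genes passed the filter on low counts. By adjusted p (threshold 0.05), 1 of the 10 was higher in Arid1a cKO ventricles (Trim54), against 8.25% of the 15318 genes tested, and 3 were lower (Trim55, Asb2 and Asb15), against 8.03%. With a fold change over 1.5 required as well, 1 was higher, against 4.01% of all tested genes, and 2 were lower (Asb2 and Asb15), against 2.72%. The libraries of the groups did not overlap for 1 gene that was higher, against 8.16% of all tested genes, and for 3 that were lower, against 8.58%. They overlapped for the other 6. With so few genes, these counts describe the single members and not a property of the whole group. Tests were those of edgeR with Benjamini-Hochberg adjustment over all tested genes, and levels are CPM, counts out of each 1000000 of the scaled library total.

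**Figure D1:**
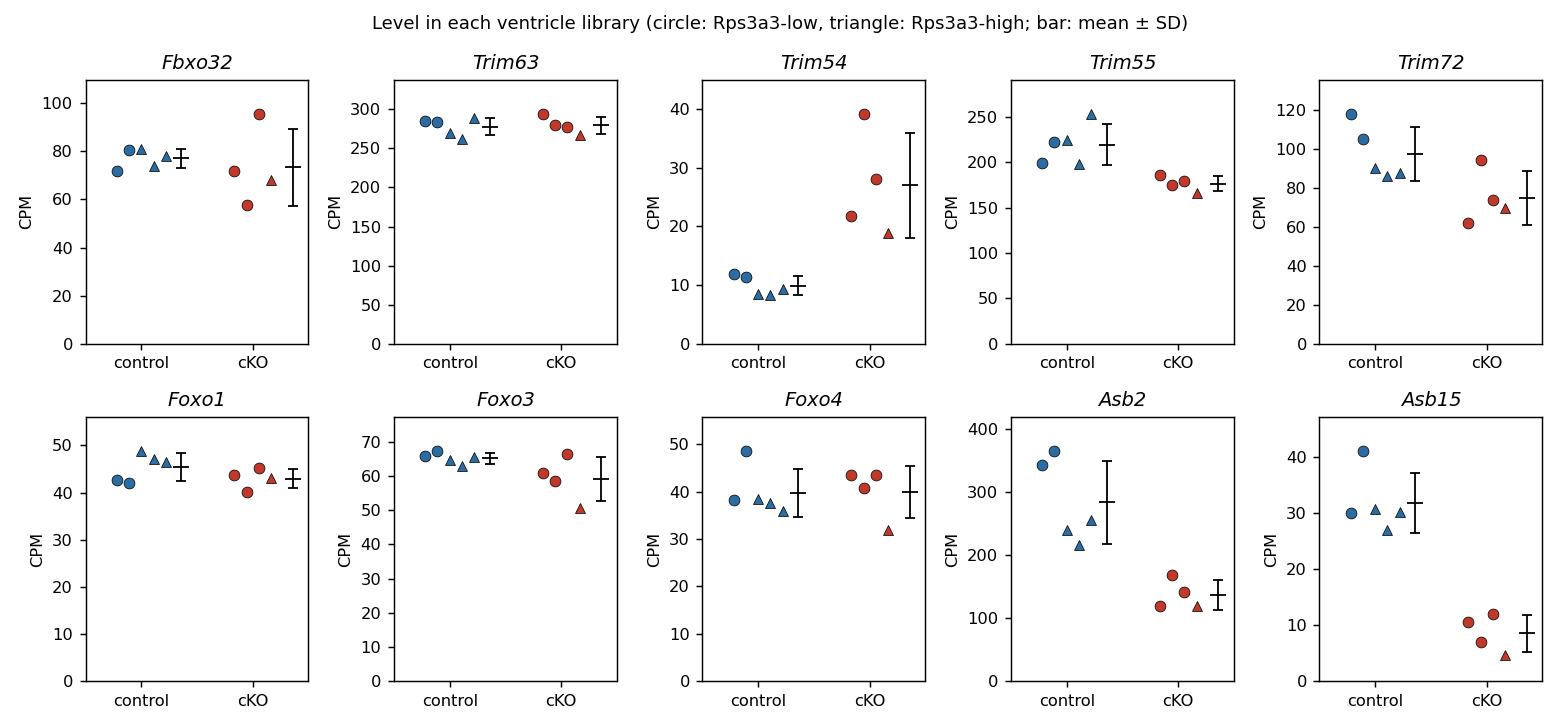
The level in CPM (vertical axis, from 0) of each of the 10 genes in the 5 control (blue) and 4 cKO (red) libraries, with circles for Rps3a3-low and triangles for Rps3a3-high libraries and a bar for the mean ± SD. The cKO libraries lay above all controls for Trim54 (18.9 to 39.1 against 8.34 to 11.9 CPM) and below all controls for Trim55, Asb2 and Asb15.

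Counts in a library summed to between 31011055 and 40073801, and within-group Spearman correlations over genes were 0.982 to 0.995. The deleted gene, Arid1a, went from 139.8 ± 8.84 CPM (controls, SD, n = 5) to 106 ± 5.44 CPM (cKO, SD, n = 4), which is -0.39 on the log2 scale (adjusted p = 0.00132, edgeR). The libraries fell into 2 sets by the reads given to Rps3a3, a near copy of Rps3a1: an Rps3a3-low set with 0.345 to 0.521 CPM (control replicates 1 and 2, cKO replicates 1 to 3) and an Rps3a3-high set with 99.7 to 112 CPM (control replicates 3 to 5, cKO replicate 4). Since these sets differ in their mix of genotypes, differences within each set are given below on the log2(CPM + 0.5) scale. In the Rps3a3-high set cKO replicate 4 is the only cKO library, so each difference within that set rests on it. The 8 cardiomyocyte markers summed to 45086 to 54157 CPM in controls and 39230 to 45939 CPM in cKO libraries, ranges that overlap. Pln and Myl2 were the 2 of 8 that fell, at log2 fold changes of -0.45 and -0.43 (edgeR adjusted p = 0.00875 and 0.00124), and the 6 that did not pass ran from -0.31 for Tnni3 to 0.22 for Actn2. By edgeR 5 of the 8 had an unadjusted p under 0.05. Pln, Myl2, Tnni3 and Tnnt2 (-0.23) were lower among them, and Actn2 was higher. Of 14 markers of skeletal muscle, Myod1 and Pax7 were at 0 counts in every library and 0 of the 4 that could be tested passed, with sums of 3.65 to 6.29 CPM in controls and 6.28 to 8.19 CPM in cKO libraries. All 4 had an unadjusted p under 0.05 by edgeR, at log2 fold changes of 0.75 for Mylpf, 0.62 for Tnnt3, 0.80 for Tnni2 and -1.09 for Myh8 (adjusted p = 0.0529 to 0.0943), and mean levels of at most 3.18 CPM. Mylpf, Tnnt3 and Myog, the last at means of 0.0058 and 0.112 CPM, were higher in cKO with no overlap between the groups. Of 8 endothelial markers 2 fell, Tek and Erg, both at -0.28 (edgeR adjusted p = 0.0193 and 0.0180), and the other 6 lay between -0.07 and 0.06, with sums of 1612 to 1734 CPM in controls and 1546 to 1685 CPM in cKO libraries. Of 8 macrophage markers 0 passed by edgeR and 1 had an unadjusted p under 0.05 (Lyz2 at 0.71), with sums of 111 to 184 CPM in controls and 134 to 241 CPM in cKO libraries. In bulk ventricle, fewer cells of a type and less RNA per cell cannot be told apart.

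The transcripts of the 3 FoxO factors among the 10 genes, which sit upstream of the atrophy ligases, did not pass the test in either direction. A further FoxO gene, Foxo6, counted in a list below, did not pass either. Its mean was 3.34 CPM in controls and 1.97 CPM in cKO libraries (log2 fold change -0.76, edgeR unadjusted p = 0.0104, adjusted p = 0.0593). Foxo1, the family member best known for metabolic control, ranged from 42.0 to 48.7 CPM in controls and from 40.1 to 45.1 CPM in cKO libraries. Foxo3, a regulator of autophagy and atrophy genes, ranged from 62.9 to 67.2 CPM in controls and from 50.7 to 66.5 CPM in cKO libraries. Foxo4, a further Akt-regulated factor encoded on the X chromosome, ranged from 35.9 to 48.5 CPM in controls and from 31.9 to 43.5 CPM in cKO libraries. The groups overlapped for all 3. Log2 fold changes were -0.08 for Foxo1 (95% interval -0.23 to 0.07, adjusted p = 0.477), -0.14 for Foxo3 (-0.31 to 0.02, adjusted p = 0.239) and 0.01 for Foxo4 (-0.23 to 0.25, adjusted p = 0.977), by edgeR with Benjamini-Hochberg adjustment. Inside a library the count of Foxo1 was 0.624 to 0.754 of that of Foxo3 in controls and 0.679 to 0.849 in cKO libraries, a log2 difference of 0.07 (two-sided exact permutation p = 0.468, adjusted over 6 ratios 0.476).

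Foxo1 (chr3:52268336-52353221, plus strand) and Foxo3 (chr10:42181841-42276755, minus strand) also differed in their start regions from the 5 ligase genes with an entry in the promoter table, which lacks Fbxo32, Trim55 and Foxo4. Among the windows of 300 bases around annotated starts, those of Foxo1 and Foxo3 held 31 and 35 CG dinucleotides. The windows of Trim63, Trim54, Trim72, Asb2 and Asb15 held between 2 and 7. Foxo4 lies at chrX:101254528-101260873 on the plus strand.

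The classic FoxO targets Fbxo32 and Trim63 did not pass the test either. Fbxo32 (chr15:58175879-58214932, minus strand) encodes atrogin-1, the substrate-binding subunit of an SCF ligase. Its levels in control replicates 1 to 5 were 71.97, 80.4, 81.2, 74.1 and 78.3 CPM, and in cKO replicates 1 to 4 they were 71.7, 57.9, 95.5 and 68.3 CPM. The lowest and the highest of all 9 libraries were both cKO libraries, so the cKO values enclosed the controls. The log2 fold change was -0.07 (SE 0.12, 95% interval -0.33 to 0.18, edgeR adjusted p = 0.721), and the SD was 15.9 CPM over cKO and 4.01 CPM over control libraries. Without cKO replicate 3 the value was -0.23 (adjusted p = 0.111), and without cKO replicate 2 it was 0.024.

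Trim63 (chr4:134315120-134329629, plus strand) encodes MuRF1, a RING ligase of the sarcomere. Its levels were 285, 284, 270.3, 262 and 289 CPM in control replicates 1 to 5 and 294, 279.9, 278, and 267 CPM in cKO replicates 1 to 4. The groups covered nearly the same range. The log2 fold change was 0.01 (SE 0.06, 95% interval -0.11 to 0.13, edgeR adjusted p = 0.934), so the interval leaves out changes of 1.5-fold in either direction. The count of Fbxo32 relative to that of Trim63 was 0.252 to 0.300 in controls and 0.207 to 0.344 in cKO libraries, a log2 difference of -0.10 (two-sided exact permutation p = 0.476, also after adjustment over 6 ratios).

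MuRF3 and MuRF2 moved apart from MuRF1. Trim54 (chr5:31116712-31137630, plus strand) encodes MuRF3, which binds and stabilises microtubules. Its levels were 11.9, 11.3, 8.53, 8.34 and 9.31 CPM in control replicates 1 to 5 and 21.8, 39.1, 28.0 and 18.9 CPM in cKO replicates 1 to 4. Every cKO library lay above every control, and cKO replicate 2 was the highest. The mean rose from 9.87 ± 1.63 (SD, n = 5) to 27.0 ± 8.95 CPM (SD, n = 4), or 2.73-fold. On the log2 scale the rise was 1.45 (SE 0.20, 95% interval 1.01 to 1.89, edgeR adjusted p = 0.00059). Within the Rps3a3-low libraries the difference was 1.28 and within the Rps3a3-high libraries 1.07. Of 8 markers of smooth muscle and mural cells 2 also rose, Acta2 from a mean of 661 to 2834 CPM and Cnn1 from 4.04 to 27.7 CPM. The other 6 did not pass, among them Myh11 at -0.30 and Rgs5 at 0.11 on the log2 scale (edgeR adjusted p = 0.139 and 0.431). The list summed to 1879.8 to 2246 CPM in controls and 3610.1 to 4892 CPM in cKO libraries, mostly through Acta2. Of 8 fibroblast markers 3 rose, with log2 fold changes of 0.52 for Col1a1, 0.40 for Col1a2 and 0.48 for Tcf21 (edgeR adjusted p = 0.0346, 0.00574 and 0.0182). The other 5 did not pass, from -0.26 for Dpt and -0.04 for Dcn to 0.14 for Col3a1, and sums were 5855 to 7220.3 CPM in controls and 6973 to 8330.1 CPM in cKO libraries. Of 5 atrial markers 4 could be tested and 1 rose, Myl7 at 1.20 (edgeR adjusted p = 0.00493). Sln at -1.25, Nr2f2 at -0.14 and Myl4 at 0.16 did not pass, Bmp10 was at means of 0.056 and 0 CPM, and sums were 89.0 to 166 CPM in controls and 151 to 217 CPM in cKO libraries. The part of these markers, and of the summed skeletal muscle markers, in the Trim54 result was not tested.

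Trim55 (chr3:19644474-19692421, plus strand) encodes MuRF2, a MuRF protein tied to titin and microtubules during sarcomere assembly. Control replicates 1 to 5 held 199.8, 222, 225, 199 and 253 CPM, while cKO replicates 1 to 4 held 186, 175, 179.7 and 167 CPM. All cKO libraries lay below the lowest control. The mean fell from 219.7 ± 22.4 (SD, n = 5) to 177 ± 8.07 CPM (SD, n = 4), equal to -0.31 on the log2 scale (SE 0.08, edgeR adjusted p = 0.0152), short of 1.5-fold. Within the Rps3a3-low libraries alone the value was -0.23 and did not pass (edgeR adjusted p = 0.180). The difference within the Rps3a3-high libraries, whose only cKO library is cKO replicate 4, was -0.43. Of the markers given above 2 of 8 for cardiomyocytes and 2 of 8 for endothelium also fell and the others did not pass, and their part in this fall was not tested.

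**Figure D2:**
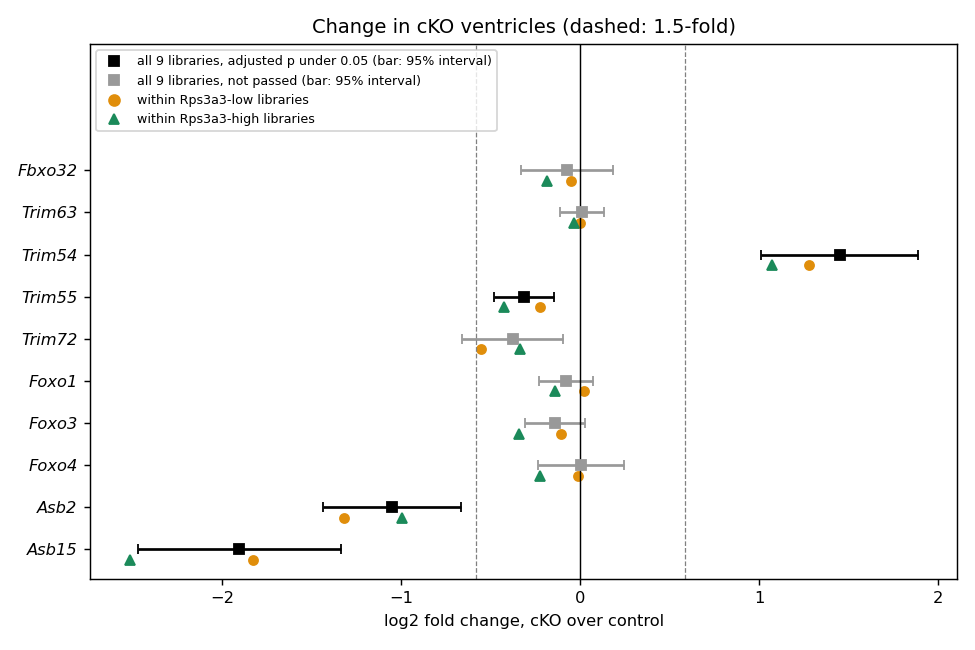
The log2 fold change of cKO over control (horizontal axis) for each gene, as squares with 95% intervals over all 9 libraries (black where the adjusted p was under 0.05), and as circles and triangles within the Rps3a3-low and Rps3a3-high libraries; dashed lines mark 1.5-fold. Trim54 at 1.45, Asb2 at -1.05 and Asb15 at -1.90 lie beyond the dashed lines, while Trim63 and Foxo4, both at 0.01, lie near 0. Each triangle rests on cKO replicate 4, the only cKO library of the Rps3a3-high set.

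Start regions of Trim63, which did not pass the test, and Trim54, which rose, are shown from RefSeq (GRCm38.p6), each as 250 bases before to 50 bases after the annotated start on the plus strand, at chr4:134314870-134315169 and chr5:31116362-31116661. Capitals mark matches, on either strand, to the FoxO element GTAAACA, the TEAD element GGAATG, the E-box CAGCTG and the TATA box TATAAA. The GENCODE start of Trim54 lies downstream of the RefSeq window.
Trim63: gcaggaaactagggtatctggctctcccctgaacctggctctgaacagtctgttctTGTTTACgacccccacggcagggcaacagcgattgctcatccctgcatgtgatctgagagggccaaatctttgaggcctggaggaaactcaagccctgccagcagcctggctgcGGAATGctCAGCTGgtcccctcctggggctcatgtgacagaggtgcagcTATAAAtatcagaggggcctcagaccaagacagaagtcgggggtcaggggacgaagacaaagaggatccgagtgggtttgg
Trim54: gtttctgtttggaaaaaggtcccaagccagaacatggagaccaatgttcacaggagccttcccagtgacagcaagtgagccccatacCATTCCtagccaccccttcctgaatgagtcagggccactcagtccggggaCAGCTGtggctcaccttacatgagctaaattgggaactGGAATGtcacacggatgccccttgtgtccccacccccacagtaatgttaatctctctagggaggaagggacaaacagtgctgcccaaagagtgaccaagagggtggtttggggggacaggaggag
The Trim63 window held a FoxO match at -194, a TEAD match at -80, an E-box at -72 and a TATA box at -31, counted from the start. The Trim54 window held TEAD matches at -163 and -75 and an E-box at -113, and neither a FoxO nor a TATA match. Over 32851 promoter windows of the same length, 3.65% held the FoxO element, 14.66% the TEAD element, 16.3% this E-box and 13.62% the TATA box. A match describes these letters and is not a shown site. The windows of Trim72 and Foxo1 held no match to any motif searched, and that of Foxo3 held TEAD matches at -180 and 21. The GENCODE start of Trim72 lies upstream of its RefSeq window, so bases around that start were not searched.

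Ratios inside a library, which do not depend on scaling, showed the same shift within the MuRF family. The count ratio of Trim63 to Trim55 was 1.14 to 1.43 in controls and 1.55 to 1.60 in cKO libraries, a log2 difference of 0.32 (two-sided exact permutation p = 0.0159, adjusted over 6 ratios 0.0238). Counts of Trim63 were 23.9 to 31.7 times those of Trim54 in controls and 7.16 to 14.1 times in cKO libraries. That log2 difference was -1.40 (exact permutation p = 0.00794, the smallest this design allows, adjusted 0.0238). For Trim55 over Trim54 the ratio went from 16.8 to 27.2 in controls to 4.47 to 8.83 in cKO libraries, a log2 difference of -1.72 with the same p-values. None of these 3 ratios overlapped between the groups, and each gave an exact permutation p of 0.025 with labels permuted within the library sets, the smallest that 40 splits allow.

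Per kilobase of exon, the summed level of the 3 MuRF transcripts was 187 ± 11.2 CPM per kilobase in controls (SD, n = 5) and 184 ± 9.61 in cKO libraries (SD, n = 4). The share of Trim54 in that sum was 3.67% ± 0.60 in controls, with a range of 3.19 to 4.51%. In cKO libraries it was 10.1% ± 3.0, with a range of 7.75 to 14.2%. The share of Trim55 went from 44.0% ± 2.29 to 36.2% ± 1.28, and that of Trim63 from 52.3% ± 1.81 to 53.6% ± 1.80. These shares were chosen after the values had been seen and carry no test.

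**Figure D3:**
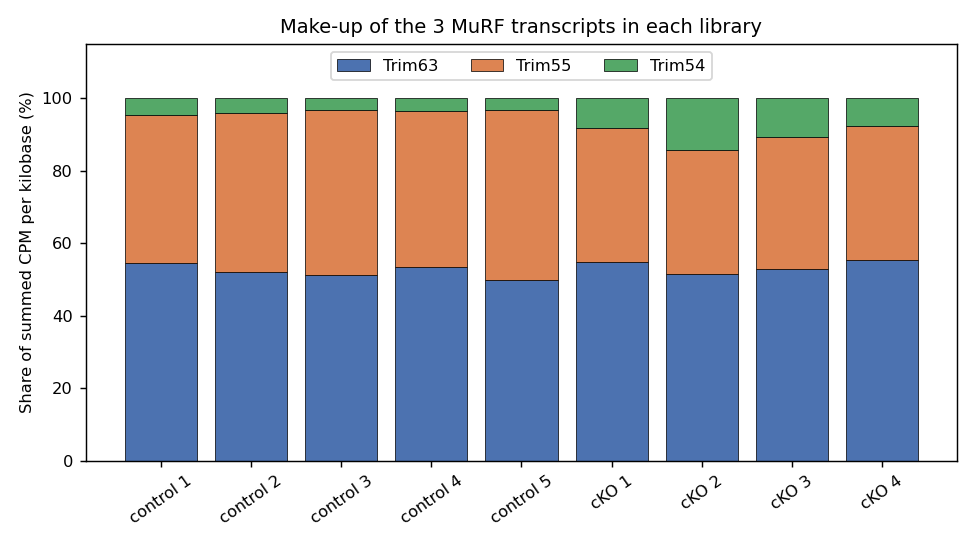
The share in percent (vertical axis, from 0) of Trim63, Trim55 and Trim54 in their summed CPM per kilobase, as a stacked bar for each of the 9 libraries. The top segment, Trim54, spans 3.19 to 4.51% in controls and 7.75 to 14.2% in cKO libraries.

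Trim72 (chr7:128003949-128011033, plus strand) encodes MG53, a TRIM ligase of striated muscle that also patches torn plasma membrane. Its levels were 117.8, 105, 90.1, 85.9 and 87.7 CPM in control replicates 1 to 5 and 62.0, 94.4, 73.6 and 69.4 CPM in cKO replicates 1 to 4. The groups overlapped, since cKO replicate 2 exceeded control replicates 3 to 5. The log2 fold change was -0.38 (SE 0.13, 95% interval -0.66 to -0.10) and did not pass by edgeR (adjusted p = 0.0684). It passed without cKO replicate 2 (-0.51, edgeR adjusted p = 0.0113), by DESeq2 (-0.38, adjusted p = 0.0286), and in an edgeR fit that included the library set (-0.46, adjusted p = 0.0131). Differences within the Rps3a3-low and Rps3a3-high libraries were -0.56 and -0.34.

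The ASB genes gave the largest falls among the 10. Asb2 (chr12:103321142-103356001, minus strand) encodes a substrate receptor that targets filamins in muscle. Its levels were 343, 365, 240.5, 216 and 255 CPM in control replicates 1 to 5 and 119, 169, 141 and 119 CPM in cKO replicates 1 to 4. The groups did not overlap. Controls themselves were uneven, with Rps3a3-low controls 1 and 2 above the other three controls. The mean fell from 283.9 ± 65.8 (SD, n = 5) to 137 ± 23.9 CPM (SD, n = 4), to 0.482 of the control level. On the log2 scale this was -1.05 (SE 0.17, 95% interval -1.44 to -0.67, edgeR adjusted p = 0.00241). Differences within the Rps3a3-low and Rps3a3-high libraries were -1.32 and -0.99.

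Asb15 (chr6:24528144-24573164, plus strand) encodes a muscle-enriched ASB protein. Its levels were 30.1, 41.0, 30.7, 27.0 and 30.3 CPM in control replicates 1 to 5, and 10.5, 6.89, 11.96 and 4.70 CPM in cKO replicates 1 to 4. The highest cKO library stayed far under the lowest control. The mean fell from 31.8 ± 5.36 (SD, n = 5) to 8.52 ± 3.33 CPM (SD, n = 4), to 0.267 of the control level. This came to -1.90 on the log2 scale (SE 0.25, 95% interval -2.47 to -1.34, edgeR adjusted p = 0.000741). Differences within the Rps3a3-low and Rps3a3-high libraries were -1.83 and -2.52. The part of the cardiomyocyte markers Pln and Myl2 and the endothelial markers Tek and Erg, which also fell, in the falls of both ASB genes was not tested. The count ratio of Asb2 to Asb15 was 7.84 to 11.4 in controls and 11.2 to 25.3 in cKO libraries, a log2 difference of 0.94 (two-sided exact permutation p = 0.0159, adjusted over 6 ratios 0.0238). This ratio overlapped between the groups, and exact permutation within the library sets gave p = 0.05.

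The start regions of Asb2 and Asb15, the members that fell most, are shown in the same way from RefSeq (GRCm38.p6). Asb2 has 2 annotated starts on the minus strand, at chr12:103355952-103356251 and chr12:103338341-103338640, and gene counts do not tell them apart. The Asb15 window lies at chr6:24527894-24528193 on the plus strand. Capitals mark a CArG box in the upstream Asb2 window, the E-box CAGCTG in the downstream Asb2 window and TATAAA, in either orientation, in the Asb15 window.
Asb2 upstream start: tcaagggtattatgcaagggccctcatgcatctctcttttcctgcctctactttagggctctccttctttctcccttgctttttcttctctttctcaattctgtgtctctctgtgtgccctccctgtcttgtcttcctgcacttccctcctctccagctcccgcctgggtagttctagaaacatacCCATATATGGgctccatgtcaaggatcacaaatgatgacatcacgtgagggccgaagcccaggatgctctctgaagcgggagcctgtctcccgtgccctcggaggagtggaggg
Asb2 downstream start: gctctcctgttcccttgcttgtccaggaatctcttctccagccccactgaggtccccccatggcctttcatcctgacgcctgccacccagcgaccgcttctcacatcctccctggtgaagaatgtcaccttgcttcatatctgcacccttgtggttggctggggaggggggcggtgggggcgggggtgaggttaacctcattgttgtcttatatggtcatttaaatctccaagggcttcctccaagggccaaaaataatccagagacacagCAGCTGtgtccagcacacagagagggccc
Asb15: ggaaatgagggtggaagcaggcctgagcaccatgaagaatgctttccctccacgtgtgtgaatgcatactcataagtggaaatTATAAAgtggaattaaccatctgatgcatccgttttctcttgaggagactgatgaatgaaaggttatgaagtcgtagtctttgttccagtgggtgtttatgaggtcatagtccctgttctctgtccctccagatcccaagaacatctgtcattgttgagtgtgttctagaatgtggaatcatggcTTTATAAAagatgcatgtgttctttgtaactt
The CArG box, the recognition element of serum response factor, lay at -64 and occurred in 1.629% of the promoter windows. The E-box of the downstream Asb2 window lay at 22. Asb15 held TATA matches at -167, 19 and 21, of which the last pair overlap on opposite strands. A MEF2 element, found in 3.187% of all windows, matched none of the windows of the 7 genes with an entry.

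Compared per kilobase of exon, the control levels fell into tiers. Trim63 was highest at 97.8 ± 3.99 CPM per kilobase, followed by Trim55 at 82.6 ± 8.43 and Asb2 at 80.2 ± 18.6 (SD, n = 5), and these neighbours overlapped in range. Trim72, at 43.6 ± 6.16, lay apart from Asb2 above and from Foxo4 below. Foxo4 at 11.4 ± 1.43 and Fbxo32 at 11.1 ± 0.575 overlapped. Foxo3 at 8.62 ± 0.213 overlapped Asb15 at 7.08 ± 1.19, which overlapped Trim54 at 6.88 ± 1.13. Foxo1 was lowest at 5.24 ± 0.339, with its highest control at 5.62, under the lowest Trim54 control at 5.81. Atrogin-1 RNA was at a far lower level per kilobase than MuRF1 RNA at this age. In cKO libraries Trim54 moved from rank 9 to rank 5, at 18.8 ± 6.23 CPM per kilobase, and Asb15 from rank 8 to rank 10, at 1.90 ± 0.740 (SD, n = 4).

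**Figure D4:**
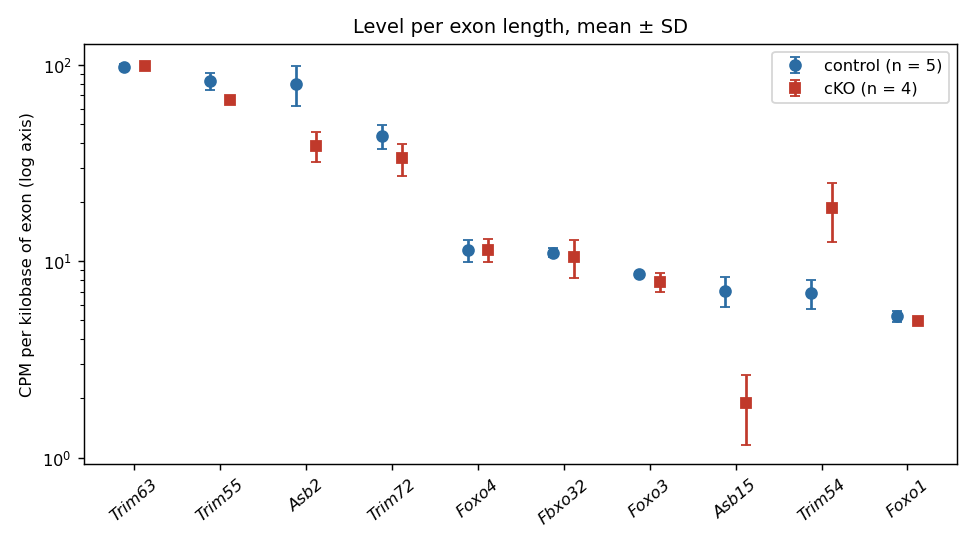
The level per kilobase of exon (vertical log axis) of the 10 genes, ordered by control mean, as mean ± SD over 5 control (blue circles) and 4 cKO (red squares) libraries. Trim54 rises from 6.88 to 18.8 CPM per kilobase past 4 genes, and Asb15 drops from 7.08 to 1.90 to become the lowest.

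Over all 9 libraries, the patterns closest to Fbxo32 were those of Myzap (Pearson r = 0.913), Zcchc2 (r = 0.900) and Itga6 (r = 0.875), among 10727 candidate genes. Closest to Trim63 were Fbln1 (r = 0.912), Myl4 (r = 0.912) and Serpinf1 (r = 0.899). These correlations of log2 CPM are a description across libraries that share scaling and library set. Among the members themselves, deviations from the group means went together most for Foxo3 and Asb15 (r = 0.93), Trim54 and Trim72 (r = 0.89) and Trim72 and Asb2 (r = 0.89), again over 9 libraries and with no test.

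Other genes of the same pathways were read from 10 lists of 271 genes in all, of which Irs1 and Rictor stand in 2 lists each, to be read against 8.25% of all tested genes higher, 8.03% lower and an all-gene median log2 fold change of 0.01. Among 25 other muscle ubiquitin ligases 4 rose and 5 fell at the adjusted p of 0.05, with a list median of -0.13. The number that rose was 2 without control replicate 1, 3 or 5 or cKO replicate 1, 3 or 4, and within the Rps3a3-low libraries alone 2 rose and 2 fell. Klhl40, a cullin 3 adaptor that stabilises thin filament proteins, rose from 9.34 ± 2.77 to 22.7 ± 4.14 CPM (log2 fold change 1.28, edgeR adjusted p = 0.00135). Rnf207, a RING protein tied to cardiac repolarisation, fell from 331 ± 45.3 to 191 ± 22.02 CPM (-0.79, edgeR adjusted p = 0.000428). Kbtbd13, a further cullin 3 adaptor, fell by 0.95 on the log2 scale (edgeR adjusted p = 0.00565) and was at -0.66 within the Rps3a3-low libraries alone, where it did not pass (edgeR adjusted p = 0.189).

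Falls were not shared by all relatives of Asb2 and Asb15. Of 16 other ASB genes 14 could be tested, 3 were higher and 3 lower, and the list median was -0.05. Over 17 alternatives the counts stayed at 2 to 3 higher and 2 to 4 lower. Asb14 fell from 36.7 ± 5.75 to 17.1 ± 5.53 CPM (log2 fold change -1.10, edgeR adjusted p = 0.00725), and Asb12 fell from 7.74 ± 0.982 to 3.80 ± 0.596 CPM (-1.03, edgeR adjusted p = 0.000533). Asb18 fell by 0.75 on the log2 scale from a low level (edgeR adjusted p = 0.0199), but did not pass by edgeR without cKO replicate 2 (-0.69, adjusted p = 0.0612), without cKO replicate 4 (-0.70, adjusted p = 0.0577) or within the Rps3a3-low libraries alone (-0.85, adjusted p = 0.112). Asb11, named after its values were seen, was the called gene of the list that rose, from 72.2 to 109.7 CPM (0.60, edgeR adjusted p = 0.00165).

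In the shared machinery no gene passed as higher in the edgeR fit of genotype alone. With the library set added to that fit, 1 cullin core gene and 1 ubiquitin or E2 gene were higher. Of 20 cullin ligase core genes 1, or 5%, was lower (Dcun1d1, a neddylation factor, -0.31, edgeR adjusted p = 0.0189). Of 26 ubiquitin and E2 enzyme genes 3, or 11.5%, were lower, led by the E2 enzymes Ube2e3 (-0.44, edgeR adjusted p = 0.00309) and Ube2d1 (-0.34, edgeR adjusted p = 0.0228). Within the Rps3a3-low libraries alone Dcun1d1 (-0.27, adjusted p = 0.184), Ube2e3 (-0.30, adjusted p = 0.151) and Ube2d1 (-0.25, adjusted p = 0.372) did not pass by edgeR. Dcun1d1 also did not pass without cKO replicate 2 (-0.28, edgeR adjusted p = 0.0543) or cKO replicate 3 (-0.30, adjusted p = 0.0609). Nor did Ube2d1 without control replicate 3 or cKO replicate 2, 3 or 4 (-0.35 to -0.27, edgeR adjusted p = 0.0517 to 0.0593). The count of lower genes ran from 0 to 3 for the cullin cores (2 without control replicate 1 or cKO replicate 1) and from 0 to 4 for the ubiquitin and E2 list (1 without control replicate 3 or cKO replicate 2 or 3). Of 39 proteasome genes 0 passed in either direction in the edgeR fit of genotype alone, where 2 had an unadjusted p under 0.05. By DESeq2 1 was higher, in the edgeR fit with the library set added 1 was lower, and the list median was 0.01. The proteasome genes summed to 3776 to 4022 CPM in controls and 3889.9 to 3973 CPM in cKO libraries.

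In a list of 42 genes, made up of genes that act upstream of FoxO and the FoxO gene Foxo6, 2 were higher and 5 lower, with a list median of -0.10. The count of lower genes was unstable, at 12 by DESeq2, 8 without cKO replicate 1, 3 without control replicate 5, 2 without cKO replicate 2 or 3, and 1 without cKO replicate 4 or within the Rps3a3-low libraries alone. Igf1r, the receptor for insulin-like growth factor, rose from 18.4 ± 1.45 to 36.5 ± 3.32 CPM (log2 fold change 0.99, edgeR adjusted p = 1.1e-05), with no overlap between the groups. Akt2, a kinase that phosphorylates FoxO factors, fell from 117.8 ± 6.23 to 78.4 ± 3.76 CPM (-0.59, edgeR adjusted p = 5.3e-05), also with no overlap. Mstn, encoding the growth inhibitor myostatin, was the other gene that rose but stayed under 1 CPM, at means of 0.078 and 0.610 CPM, and is named after its values were seen.

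Of 39 further FoxO target genes 3 were higher and 4 lower, with a list median of -0.01. The count of lower genes was 2 without control replicate 3 or cKO replicate 3, 7 by DESeq2 and 9 with the library set in the fit. Bcl2l11, which encodes the pro-apoptotic protein Bim, fell from 65.4 ± 5.94 to 34.6 ± 5.64 CPM (log2 fold change -0.92, edgeR adjusted p = 0.000184). Gadd45a, a stress response gene, fell by 0.68 on the log2 scale (edgeR adjusted p = 0.00177), and Cdkn1a, the cell cycle inhibitor p21, rose by 0.60 (edgeR adjusted p = 0.00176). Within the Rps3a3-low libraries alone Gadd45a was at -0.66 and Cdkn1a at 0.62, and neither passed (edgeR adjusted p = 0.0814 and 0.0821).

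Genes encoding substrates of the ligases were 4 higher and 3 lower of 24, with a list median of -0.13. The count of lower genes was 6 by DESeq2 and 5 with the library set in the fit, the count of higher genes was 2 with a replicate block, and both were 1 within the Rps3a3-low libraries alone. Nebl, encoding the Z-disc protein nebulette, fell from 473 ± 46.8 to 306 ± 32.4 CPM (log2 fold change -0.63, edgeR adjusted p = 0.000612), and was at -0.46 with an adjusted p of 0.0505 by edgeR within the Rps3a3-low libraries alone. Flnc, encoding the muscle filamin and named after its values were seen, rose by 0.52 on the log2 scale (edgeR adjusted p = 0.0255). Of 16 membrane repair partners of Trim72, 3 were higher and 0 lower, led by Syt7, a calcium sensor of vesicle fusion, at 48.1 ± 5.80 and 108 ± 14.2 CPM (1.17, edgeR adjusted p = 1.8e-05). Without cKO replicate 2, 1 member of the repair list was lower. Of 26 core autophagy genes 1 was higher and 0 were lower by edgeR, 8 had an unadjusted p under 0.05, 4 were lower by DESeq2, and 1 was lower without control replicate 1 or 4. The gene that rose was Optn, an autophagy receptor (0.38, edgeR adjusted p = 0.00599), which was at 0.37 within the Rps3a3-low libraries alone and did not pass there (edgeR adjusted p = 0.154).

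**Figure D5:**
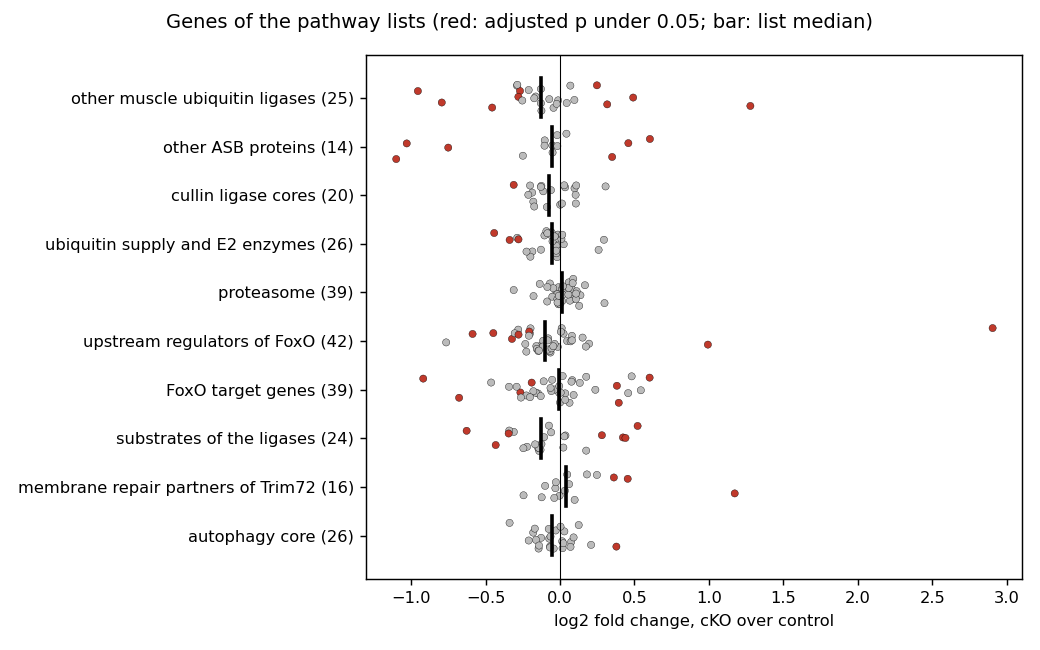
The log2 fold change of cKO over control (horizontal axis) of every tested gene in the 10 pathway lists (vertical axis, number of genes in parentheses), red at an adjusted p under 0.05, with a bar at each list median. List medians lie between -0.13 and 0.04, and the proteasome list has no red point.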

How the data were processed

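Total RNA of 9 ventricle samples was made into stranded mRNA libraries and sequenced single-end by the authors. They deposited raw read counts per gene, not normalized, as 1 table with a column for each library. The submitters' processing notes name STAR 2.4.2a, HTSeq 0.6.1 and the mm10 genome. The annotation and strand setting of the counting are not given in the sources used here. A row for the antisense gene Gm15469 was not used here, so reads on its overlap with Trim54 cannot be assigned; 4 other genes on the opposite strand of members held at most 7 counts in any library.

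Samples were grouped by their labels. The study gives 4 controls in its methods and 5 in a legend, and the 5 libraries with that label were used. The study counts its samples as hearts. Symbols and coordinates came from GENCODE M21 (GRCm38), in which 36429 of 38293 identifiers were found. Counts were tested in R 4.3.3 with edgeR 4.0.16 (filterByExpr with a minimum count of 10, TMM scaling, robust quasi-likelihood F test, genotype alone, two-sided), with Benjamini-Hochberg adjustment over 15318 genes. Called genes had a fold change over 1.5 and an adjusted p under 0.05. Log2 CPM used a prior count of 2. Count ratios were compared by exact permutation over every split of the libraries into 5 and 4, or over the 40 splits within library sets. Code was tested on simulated data. Totals of 31011055 to 40073801 counts limit precision for genes near 1 CPM.

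Named list genes were up to 3 called genes of at least 1 CPM for each list, by size of change, or up to 2 with the smallest adjusted p where none was called, and patterns closest to Fbxo32 and Trim63 were sought among genes of at least 5 CPM. The members and lists were chosen with earlier results of these data known. Alternatives were DESeq2 1.42.0, RLE and upper-quartile scaling, no filter, the replicate number as a block, library set or Xist level as a term, Rps3a3-low libraries alone, each library left out, 1 count added to ratios and the longest transcript as length. Promoter windows for 7 of 10 members came from RefSeq (GRCm38.p6).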

Additional observations from a re-analysis of the deposited data

Results flagged for a closer look

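In control replicate 2, Foxo4 was at 48.5 CPM while the other 4 controls lay between 35.9 and 38.4 CPM, a gap of 0.801 of the group's range. Without that library the log2 fold change of Foxo4 was 0.09 and still did not pass (edgeR adjusted p = 0.588). In the same library Asb15 was at 41.0 CPM while the other 4 controls lay between 27.0 and 30.7 CPM, a gap of 0.735 of the range. Without it the log2 fold change of Asb15 was -1.80 (edgeR adjusted p = 0.00132). These were 2 of 32 groups of values examined for a sample far from the rest, and chance alone picks out about 1 in 20 groups (5%).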

How the results depend on the processing

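Trim54, Asb2 and Asb15 passed an adjusted p under 0.05 under 17 of 17 alternatives, and Trim55 under 16 of 17. Trim72, which had not passed, did so under 3. Signs near 0 were unstable. Leaving out each library in turn moved Fbxo32 between -0.23 and 0.024, Trim63 between -0.016 and 0.030, Foxo1 between -0.11 and -0.05, Foxo3 between -0.20 (without cKO replicate 3) and -0.08 (without cKO replicate 4) and Foxo4 between -0.038 and 0.10 on the log2 scale. It moved Trim72 between -0.51 and -0.30 (by edgeR), Trim54 between 1.21 and 1.59, Asb2 between -1.17 and -0.95 and Asb15 between -2.11 and -1.70. Trim55 moved between -0.35 and -0.26, and its passes came close to the threshold. Its edgeR adjusted p was 0.0495 without cKO replicate 4 and 0.0479 with the replicate block. With the library set as a term Trim63 was -0.015, Foxo4 -0.10 and Trim72 -0.46; DESeq2 gave -0.38 for Trim72. In the Rps3a3-low libraries alone Trim63 was -0.0025, Foxo1 0.021, Foxo4 -0.024 and Trim55 -0.23, and over all genes 849 passed and 620 were called, against 2493 and 1030; that subset holds 5 libraries. By design its spread is estimated from fewer samples, and the cause of other shifts was not tested.

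The labels do not say whether the replicate numbers pair samples. Same-numbered libraries did not deviate together in every pair (correlations 0.02, 0.04, 0.01 and 0.23). Pairs with different numbers ran from -0.40 to 0.43, so these correlations cannot show whether the numbers pair samples. With a replicate block 1730 genes passed and 888 were called. The block gave Foxo4 -0.031 and changed no call among the 10 genes, while the list genes Asb18 and Ube2d1 were at -0.72 and -0.34 with adjusted p = 0.0723 and 0.0691 (edgeR).

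Leaving out each library in turn, the log2 difference of Fbxo32 over Trim63 ran from -0.24 (without cKO replicate 3, exact p = 0.0357) to 0.0013, that of Foxo1 over Foxo3 from -0.0027 to 0.10, and that of Asb2 over Asb15 from 0.75 to 1.14, with exact p = 0.0571 with control replicate 2, 3, 4 or 5 left out. Permuting within library sets left Asb2 over Asb15 at 0.94 (exact p = 0.05). With the longest transcript as length Trim63 was at 147 CPM per kilobase in controls, and Asb2 passed Trim55. Among recomputed list counts 55 moved by over 1.5 times and 285 did not. Most of these were the lower genes upstream of FoxO (9 of 17 alternatives, 1 to 12 genes), the higher muscle ligases (8, 2 to 4 genes), the lower cullin cores (7, 0 to 3) and the lower autophagy genes (7, 0 to 4). DESeq2 called 1134 genes.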

Other observations

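Within the controls, some members differed between the library sets. The mean log2(CPM + 0.5) of the 3 Rps3a3-high controls minus that of the 2 Rps3a3-low controls was -0.58 for Asb2, -0.39 for Trim54, -0.34 for Trim72, -0.26 for Asb15, -0.20 for Foxo4 and 0.16 for Foxo1. The other 4 members, Fbxo32, Trim63, Trim55 and Foxo3, lay between -0.06 and 0.09.

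Libraries could also be divided by Xist, which reached 745 to 904 CPM in 4 libraries (control replicates 2 and 3, cKO replicates 3 and 4) and stayed under 1 CPM elsewhere. The cKO-minus-control difference was 1.19 in Xist-high and 1.54 in Xist-low libraries for Trim54, -1.19 and -0.91 for Asb2, and -2.16 and -1.71 for Asb15. For Foxo4, which lies on the X chromosome, it was -0.21 and 0.18, and for Fbxo32 it was -0.00047 and -0.21. These differences were not tested against each other.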
